A study of Homo sapiens with 16 samples.

Results

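Aldehyde dehydrogenases oxidise aldehydes to carboxylic acids, and a bright signal in an assay of their activity is widely used to isolate stem-like cells from breast tumours. The genes described here are 10 members of the family, chosen by symbol: ALDH1A1, ALDH1A2, ALDH1A3, ALDH1B1, ALDH1L1, ALDH2, ALDH3A1, ALDH3A2, ALDH3B1 and ALDH3B2. All 10 were found among the 58735 genes of the count table, and all 10 passed the filter on low counts in both model fits. A further 9 family members (ALDH1L2, ALDH4A1, ALDH5A1, ALDH6A1, ALDH7A1, ALDH8A1, ALDH9A1, ALDH16A1 and ALDH18A1) served as a comparison list.

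RNA was selected by its poly(A) tail and sequenced in 16 libraries, 2 for each of 8 groups, from 4 established lines of human breast cancer. For HCC1806 and BT474 there were monolayers, day 10 spheroids and day 20 spheroids, and for CAL148 and ZR-75-30 there were monolayers only. HCC1806 and ZR-75-30 were kept in RPMI and BT474 and CAL148 in DMEM, each with 10% serum, so that line and medium cannot be told apart where the media differ. No drug or genetic change is given for any group, each line is a single line rather than a set of tumours, and the labels do not say whether the replicates were separate cultures, so every p-value measures only the spread between these samples. By general knowledge HCC1806 and CAL148 are triple-negative and BT474 and ZR-75-30 carry ERBB2 amplification. Levels below are in CPM, a gene's counts scaled to the size of its library. Mean ERBB2 was 5919 to 9095 CPM in the groups of BT474 and ZR-75-30 and 117 to 330 CPM in the other groups. The basal keratin KRT5 had 2254 to 4673 CPM in HCC1806 and at most 0.0951 CPM in the other lines, CAL148 included, where KRT5, KRT14 and KRT17 were at 0 counts. In bulk RNA a change in the number of cells that express a gene and a change in RNA per cell cannot be told apart.

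The ALDH1A enzymes convert retinaldehyde to retinoic acid, the ligand of the nuclear retinoic acid receptors, and ALDH1A1 and ALDH1A3 are the isoforms most often linked to ALDH activity in breast cancer cells. ALDH1B1 and ALDH2 are mitochondrial enzymes that clear acetaldehyde, and ALDH1L1 is a cytosolic enzyme of folate metabolism. ALDH3A1 clears aldehydes from lipid peroxidation and is a known target of the aryl hydrocarbon receptor, ALDH3A2 is the fatty aldehyde dehydrogenase of the endoplasmic reticulum, and ALDH3B1 and ALDH3B2 are close relatives of each other.

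By the coordinates in the count table (GRCh38), ALDH1A1 (ENSG00000165092) spans chr9:72900662-73080442 and ALDH1B1 chr9:38392664-38398661. ALDH1A2 lies at chr15:57953424-58497866 and ALDH1A3 (ENSG00000184254) at chr15:100877714-100916626. ALDH1L1 lies at chr3:126103562-126197994 and ALDH2 at chr12:111766887-111817529. The ALDH3 genes sit as 2 pairs on 2 chromosomes. ALDH3A2 lies at chr17:19648136-19677598 and ALDH3A1 (ENSG00000108602) at chr17:19737984-19748943. ALDH3B2 (ENSG00000132746) lies at chr11:67662162-67681200 and ALDH3B1 at chr11:68008578-68029282. No 150-base stretch of a transcript of 9 members occurred in another gene. For ALDH2, 5.26% of such stretches also occurred in AC002996.1, a gene annotated over it that had 0 counts in these libraries. ALDH1A2 is uncertain: with 381 counts in all 16 libraries it overlaps LIPC, which had 547, and whether the counting used strand is not given. Other genes annotated over the remaining members had at most 878 counts in all (AC015712.2, antisense to ALDH1A3 with its 28940).

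Promoter sequences, on which no result here rests, are shown for 4 members. These are ALDH1A1 and ALDH1A3 as the retinoic acid-producing isoforms, ALDH1L1 for its near absence outside HCC1806, and ALDH3A2 for its rise in HCC1806 spheroids. RefSeq promoter entries (GRCh38.p14) matched 7 of the 10 members. No entry was found for ALDH2, ALDH3A1 or ALDH3B2, so no promoter of these genes could be shown. Each sequence is the 250 bases before the annotated start of the transcript, and for ALDH1L1 and ALDH3A2, which have 2 entries each, the entry with motif matches is shown and the other held none. Capitals mark matches on either strand to TATAAA (the TATA box), CCAAT (the CCAAT box), TGACNNNGC (the core of an antioxidant response element), GCGTG (the core of a xenobiotic response element, to which the aryl hydrocarbon receptor and ARNT bind), AGGTCA (a single binding site of nuclear receptors) or TGANTCA (an AP-1 site).
ALDH1A1, chr9:72953054-72953303, minus strand: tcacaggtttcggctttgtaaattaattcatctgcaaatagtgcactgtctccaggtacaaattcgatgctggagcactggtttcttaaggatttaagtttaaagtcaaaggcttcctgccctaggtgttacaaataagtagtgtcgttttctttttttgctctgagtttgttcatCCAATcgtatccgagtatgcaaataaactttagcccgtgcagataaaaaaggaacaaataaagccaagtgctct
ALDH1A3, chr15:100879581-100879830, plus strand: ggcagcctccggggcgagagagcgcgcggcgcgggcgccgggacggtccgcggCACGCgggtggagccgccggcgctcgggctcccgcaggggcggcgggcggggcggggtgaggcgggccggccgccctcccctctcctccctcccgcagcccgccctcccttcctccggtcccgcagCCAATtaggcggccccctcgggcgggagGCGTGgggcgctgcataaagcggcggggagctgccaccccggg
ALDH1L1, chr3:126180587-126180836, minus strand: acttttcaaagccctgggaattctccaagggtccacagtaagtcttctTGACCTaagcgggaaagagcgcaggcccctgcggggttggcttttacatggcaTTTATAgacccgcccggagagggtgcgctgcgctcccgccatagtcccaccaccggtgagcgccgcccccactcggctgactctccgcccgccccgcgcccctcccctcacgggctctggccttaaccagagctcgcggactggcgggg
ALDH3A2, chr17:19648501-19648750, plus strand: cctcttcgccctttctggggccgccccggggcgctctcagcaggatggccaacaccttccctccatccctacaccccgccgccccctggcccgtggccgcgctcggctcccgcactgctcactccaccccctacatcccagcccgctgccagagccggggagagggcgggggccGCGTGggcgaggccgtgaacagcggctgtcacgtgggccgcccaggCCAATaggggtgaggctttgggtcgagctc

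ALDH1A1, ALDH1A3 and ALDH3A2 each held 1 CCAAT match, at 74, 71 and 30 bases before the start, against 32.0% of the 35116 promoter windows of that length. ALDH1A3 also held 2 GCGTG matches and ALDH3A2 held 1, against 32.2% of windows. ALDH1L1 held 1 TATAAA match, 149 bases before the start (10.7% of windows), and 1 AGGTCA match (12.1%). None of the 4 windows printed held TGACNNNGC (10.9% of windows) or TGANTCA (6.57%). No 2 of these matches overlapped. By base composition the ALDH1A1 window was 38.4% G or C, and those of ALDH1A3, ALDH1L1 and ALDH3A2 were 82.4%, 65.2% and 73.2%. For ALDH1L1 and ALDH3A2 the window was picked because it held matches, so the shares over all windows are no fair comparison there. A match is a description of letters and no evidence that a factor bound there.

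The libraries held 29696358 to 72489002 counts. The pair of HCC1806 monolayer libraries differed from each other more than any other pair: over genes, the SD of their log2 difference was 1.87, against 0.499 to 1.13 in the other 7 groups, and mitochondrially encoded genes took 14.9% of counts in replicate 1 and 0.559% in replicate 2. ZR-75-30 replicate 2 had 17.7% against 1.60% in replicate 1. These differences reached the aldehyde dehydrogenases. Among the 8 members with a mean of at least 5 CPM in HCC1806 monolayers, the higher library exceeded the lower by 1.03 to 7.23 times, whereas in HCC1806 spheroids the largest such ratio was 1.13 at day 10 and 1.25 at day 20. The effects against the HCC1806 monolayer are therefore given with both libraries and with each alone. CPM here are scaled by TMM factors over 16 libraries, and levels are compared between genes only by the FPKM values that the authors deposited, which correct for gene length.

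**Figure D1:**
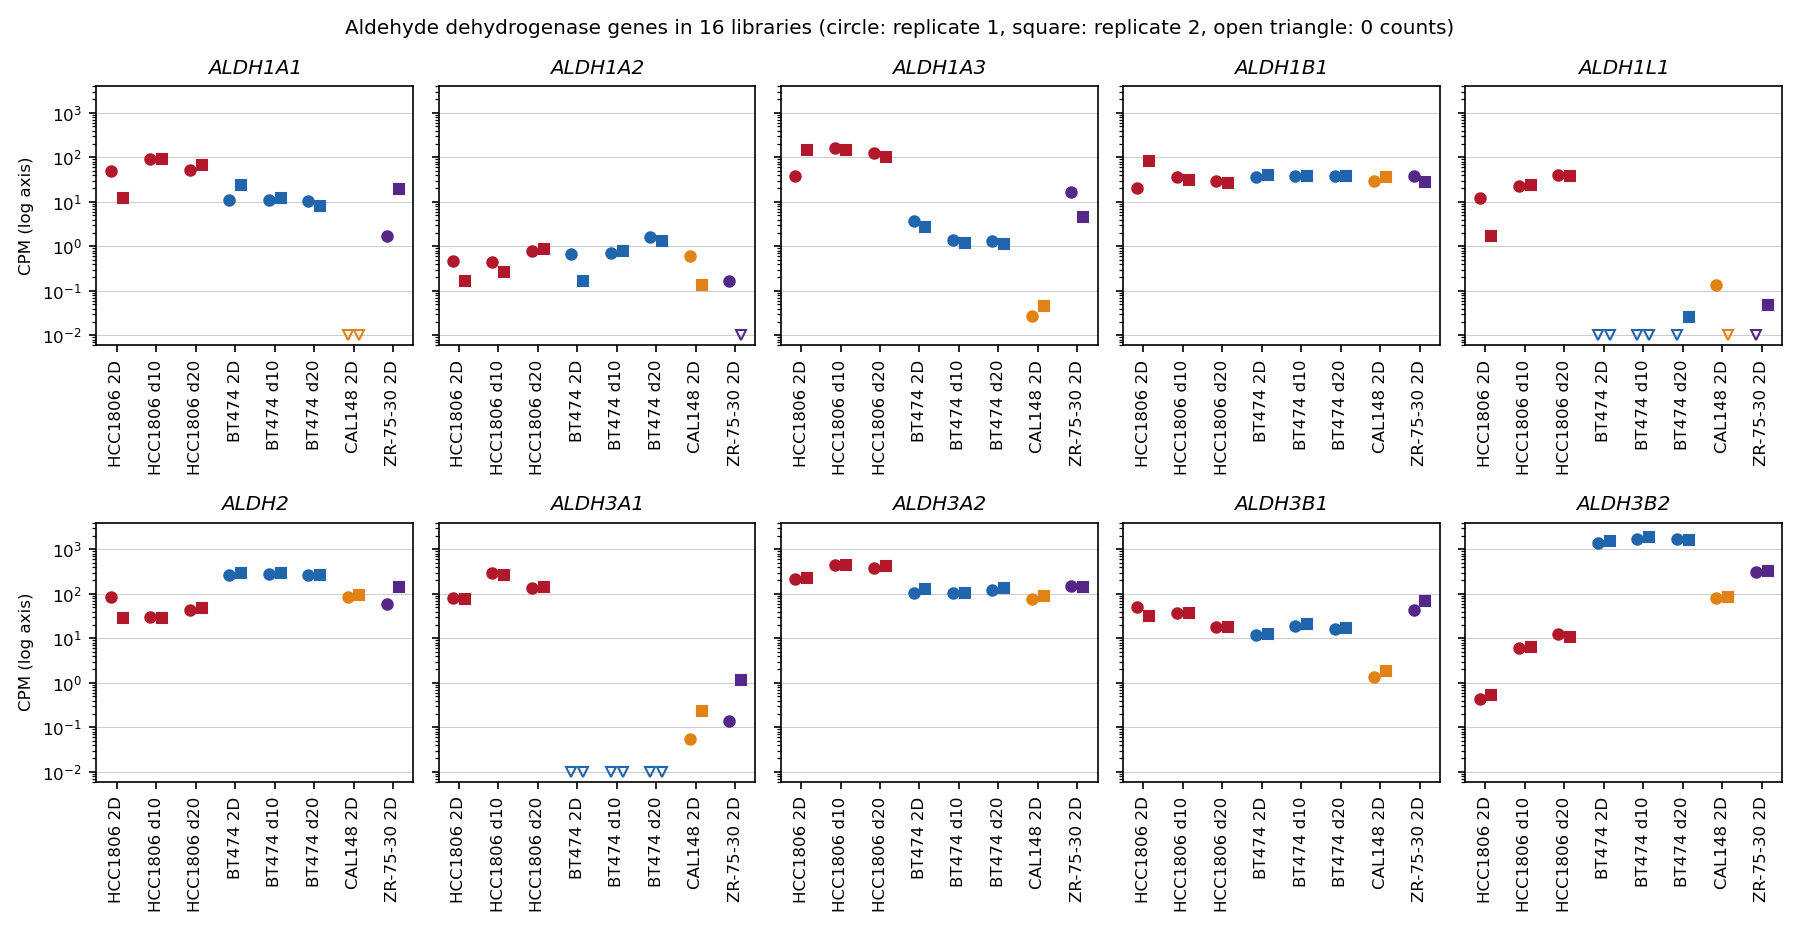
Level of each aldehyde dehydrogenase gene in the 16 libraries, in CPM on a log axis, by group (2D: monolayer, d10 and d20: spheroids at day 10 and day 20). Circles are replicate 1, squares replicate 2 and open triangles libraries with 0 counts, drawn at the bottom. ALDH3A1 and ALDH1L1 are high in HCC1806 and near 0 elsewhere, ALDH3B2 is highest in BT474 with up to 1849 CPM, and the HCC1806 monolayer pair is far apart for ALDH1A3, ALDH1B1 and ALDH1L1.

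The 4 lines held different sets of these genes. By deposited FPKM, ALDH3B2 made up 86.3% to 89.7% of the summed level of the 10 genes in the 6 BT474 libraries, 61.1% and 65.2% in ZR-75-30 and 42.4% and 45.3% in CAL148, where it was the highest of the 10. In HCC1806 it made up 0.132% to 2.49%. There ALDH3A2 led in 5 of 6 libraries, with 29.8% to 39.9% of the sum, and ALDH3A1 led in the day 10 replicate 1 with 33.1%. The summed FPKM of the 10 genes was 469 to 614 in BT474, 108 to 226 in HCC1806, 139 and 163 in ZR-75-30 and 54.3 and 60.3 in CAL148. The 3 ALDH1A genes together had 25.1 to 59.9 FPKM in HCC1806, 3.03 to 8.37 in BT474, 3.38 and 7.56 in ZR-75-30, and 0.0749 and 0.0233 in CAL148.

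**Figure D2:**
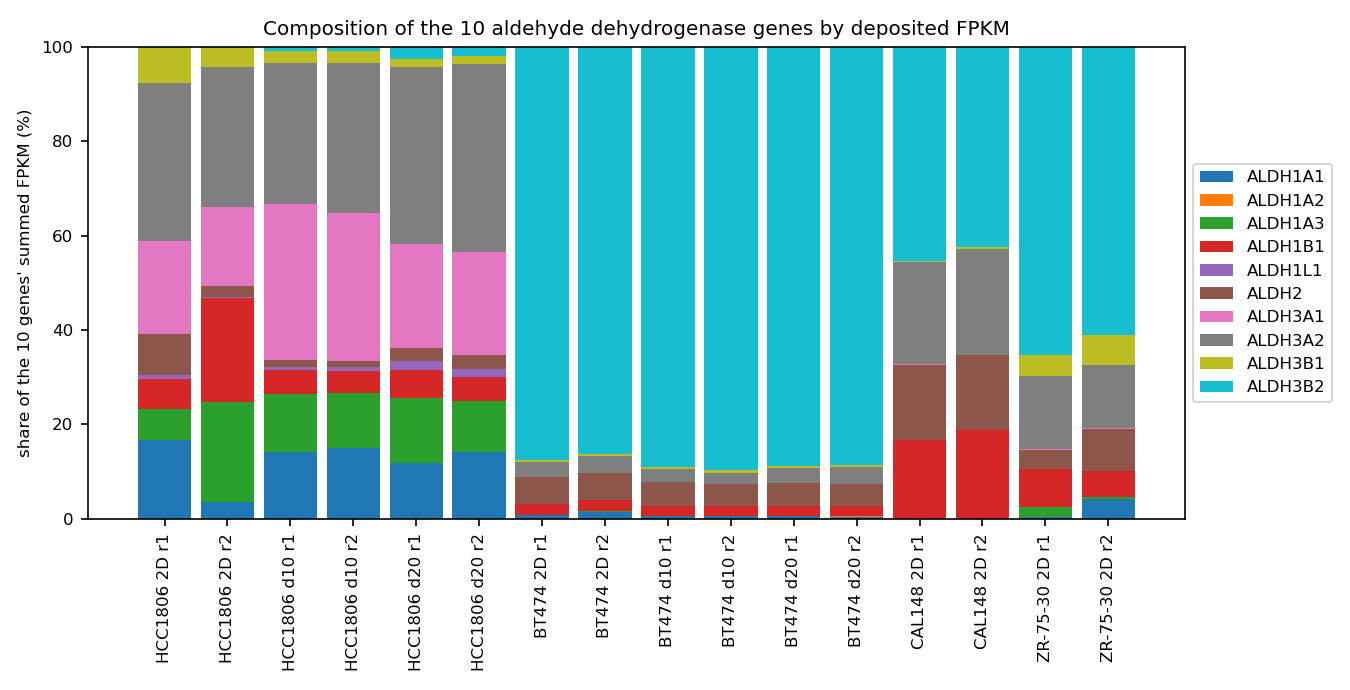
Share of each gene in the summed deposited FPKM of the 10 aldehyde dehydrogenases, in percent, for each of 16 libraries (r1 and r2: replicates). ALDH3B2 fills 86.3% to 89.7% of the BT474 bars and at most 2.49% of the HCC1806 bars, where ALDH3A1, ALDH3A2, ALDH1A1 and ALDH1A3 share most of the sum.

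The spheroid comparisons ask which members differed between cells grown in 3 dimensions and in a monolayer. Each used a single fit of the 12 HCC1806 and BT474 libraries with the edgeR quasi-likelihood test and Benjamini-Hochberg adjustment over 20929 genes, and genes with an adjusted p under 0.05 were called. In HCC1806, 3 of the 10 members were called at day 10, all of them higher in spheroids (ALDH3A1, ALDH3A2 and ALDH3B2), and 8.72% of all genes tested were called. At day 20 the same 3 were called higher and ALDH3B1 was called lower, 4 of 10 members, against 11.1% of all genes. The median log2 fold change over the 10 members was 0.84 at each day, and over all genes it was 0. None of the other 9 family members was called at either day, and their median was 0.04 at day 10 and 0.06 at day 20. Among them ALDH5A1 came nearest, at 1.87 ± 0.49 (SE) at day 10 (adjusted p = 0.0514) and 1.53 ± 0.49 at day 20 (adjusted p = 0.081). Day 10 and day 20 share their monolayer libraries.

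ALDH3B2 in the HCC1806 monolayer had 0.434 and 0.544 CPM (11 and 20 counts), at day 10 6.05 and 6.38 CPM, and at day 20 12.7 and 10.7 CPM. The 3 groups did not overlap, and the levels in spheroids were still far below the 1384 to 1849 CPM of BT474. The log2 fold change against monolayer was 3.64 ± 0.22 (SE) at day 10 (adjusted p = 0.000216) and 4.55 ± 0.23 at day 20 (adjusted p = 0.0001). With replicate 1 of the monolayer left out it was 3.42 and 4.33, and with replicate 2 left out 3.84 and 4.75, called each time.

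ALDH3A1 had 78.9 and 76.8 CPM in the HCC1806 monolayer, 291 and 265 CPM at day 10, and 137 and 142 CPM at day 20. Here the 2 monolayer libraries were close to each other, and every spheroid library lay above both, with day 10 highest. Its log2 fold change was 1.83 ± 0.17 at day 10 (adjusted p = 0.00556) and 0.83 ± 0.17 at day 20 (adjusted p = 0.0342). It was 1.77 or 1.83 at day 10 and 0.77 or 0.83 at day 20 with either monolayer library alone, called each time. Without either day 10 library the day 10 call was lost (highest adjusted p = 0.0638), and without either day 20 library so was the day 20 call (highest adjusted p = 0.206).

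ALDH3A2 had 221 and 228 CPM in the HCC1806 monolayer, 433 and 441 CPM at day 10, and 383 and 426 CPM at day 20. The monolayer pair again lay close together and below all 4 spheroid libraries. The log2 fold change was 0.96 ± 0.17 at day 10 (adjusted p = 0.012) and 0.85 ± 0.17 at day 20 (adjusted p = 0.016). With 1 monolayer library alone it ranged from 0.74 to 1.00 over both days and stayed called. The call was lost when either spheroid library of the day was left out, with adjusted p up to 0.105 at day 10 and 0.129 at day 20.

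ALDH3B1 had 50.2 and 31.3 CPM in the HCC1806 monolayer, 37.8 and 36.7 CPM at day 10, and 17.6 CPM in both day 20 libraries. At day 10 the groups overlapped, and the log2 fold change of -0.14 ± 0.23 was not called (adjusted p = 0.752). At day 20 both libraries were below both monolayers, and ALDH3B1 fell by 1.22 ± 0.23 on the log2 scale (adjusted p = 0.0145). The day 20 value was -0.91 without monolayer replicate 1 and -1.50 without replicate 2, called both times, and the call was lost without either day 20 library (highest adjusted p = 0.117). No member was called in HCC1806 at either day when that line's 6 libraries were fitted alone, where 0 genes of all were called at day 10 and 2 at day 20. The calls thus rest on a spread pooled over both lines. With voom quality weights ALDH3A1 at day 10 was the single call kept, and in a fit of all 16 libraries ALDH3A1 was called at neither day.

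**Figure D3:**
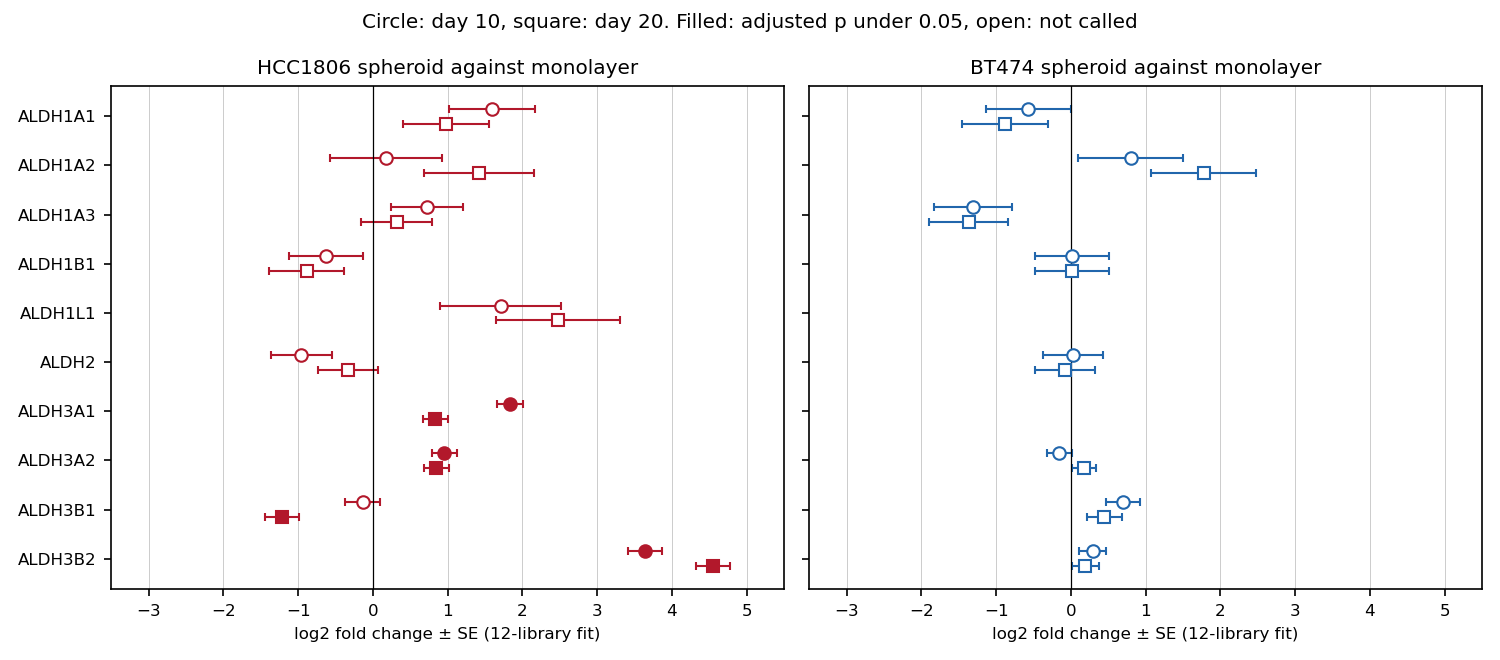
Log2 fold change of each aldehyde dehydrogenase in spheroids against the monolayer of the same line, with its SE, from the 12-library fit (circles: day 10, squares: day 20, filled: adjusted p under 0.05). ALDH3A1 and ALDH1L1 are left out for BT474, where they had at most 1 count. In HCC1806, ALDH3A1, ALDH3A2 and ALDH3B2 are filled at both days and ALDH3B1 at day 20, and in BT474 no point is filled.

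The isoforms best known from stem cell work gave no call in this fit. ALDH1A1 had 48.4 and 12.2 CPM in the HCC1806 monolayer, 91.1 and 92.5 CPM at day 10, and 53.2 and 66.7 CPM at day 20. Every spheroid library was above both monolayers, but the 2 monolayer libraries lay far apart. Its log2 fold change was 1.59 ± 0.58 at day 10 (adjusted p = 0.127) and 0.98 ± 0.57 at day 20 (adjusted p = 0.304). Against monolayer replicate 2 alone it was 2.82 and 2.21, both called, and against replicate 1 alone 0.94 (adjusted p = 0.103) and 0.32 (adjusted p = 0.549).

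ALDH1A3 had 38.7 and 144 CPM in the HCC1806 monolayer, 159 and 145 CPM at day 10, and 126 and 103 CPM at day 20. One monolayer library was thus at the spheroid level and the other well below it. The log2 fold change was 0.72 ± 0.48 at day 10 (adjusted p = 0.38) and 0.32 ± 0.48 at day 20 (adjusted p = 0.717). Against replicate 1 of the monolayer it was 1.99 at day 10 and 1.57 at day 20, called higher, and against replicate 2 it was -0.01 at day 10, not called, and -0.42 at day 20, called lower. The 2 monolayer libraries thus gave opposite calls for ALDH1A3 at day 20.

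ALDH1B1 and ALDH2 behaved in the same way. ALDH1B1 had 20.0 and 82.3 CPM in the HCC1806 monolayer and 26.5 to 35.3 CPM in the 4 spheroid libraries, between the 2 monolayers. Its log2 fold change was called higher against monolayer replicate 1 (0.75 at day 10 and 0.48 at day 20) and lower against replicate 2 (-1.39 and -1.65). ALDH2 had 85.9 and 28.5 CPM in the monolayer, 30.6 and 28.6 CPM at day 10, and 43.9 and 47.4 CPM at day 20. It was called lower against replicate 1 (-1.52 and -0.90), and against replicate 2 it was -0.03 at day 10, not called, and 0.60 at day 20, called higher. With both libraries neither gene was called, with log2 fold changes of -0.63 ± 0.50 and -0.88 ± 0.50 for ALDH1B1 and -0.96 ± 0.41 and -0.33 ± 0.40 for ALDH2.

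ALDH1L1 had 12.4 and 1.71 CPM in the HCC1806 monolayer, 22.3 and 24.0 CPM at day 10, and 40.4 and 38.0 CPM at day 20. The spheroid libraries were all above both monolayers. Its log2 fold change was 1.71 ± 0.81 at day 10 (adjusted p = 0.24) and 2.47 ± 0.83 at day 20 (adjusted p = 0.112). Against each monolayer library alone it was called higher, by 0.91 and 3.67 at day 10 and by 1.67 and 4.43 at day 20. ALDH1A2 had 0.163 to 0.886 CPM across the 6 HCC1806 libraries and no call with both monolayers (log2 fold change 0.18 ± 0.75 and 1.41 ± 0.74).

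Counts of calls against a single monolayer library need the background beside them. Without monolayer replicate 1, 6 members at day 10 and 10 at day 20 were called, and so were 38.6% and 40.5% of all genes. Without replicate 2, 8 members were called at each day, and 52.8% and 53.0% of all genes. The 4 genes that kept both sign and call with both libraries and with either alone were ALDH3A1, ALDH3A2 and ALDH3B2 at both days and ALDH3B1 at day 20. The mitochondrial shares of 14.9% and 0.559% move with these differences, and their part in them was not tested.

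**Figure D4:**
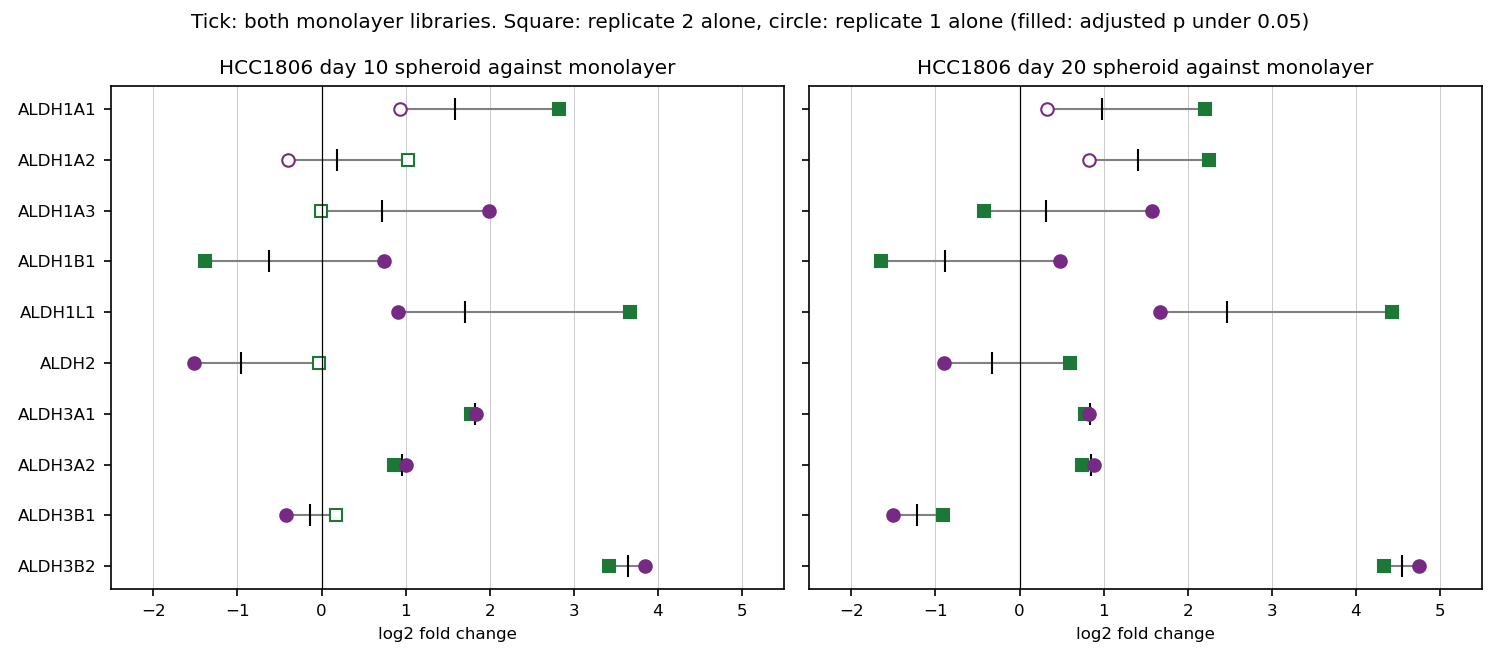
Log2 fold change of HCC1806 spheroids against monolayer for each aldehyde dehydrogenase with both monolayer libraries (tick), with replicate 2 alone (square) and with replicate 1 alone (circle), filled where the adjusted p was under 0.05. For ALDH3A1, ALDH3A2 and ALDH3B2 the marks lie close together, and for ALDH1A3, ALDH1B1 and ALDH2 they lie on both sides of 0 at day 20.

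Between day 10 and day 20 in HCC1806, no member was called by edgeR in the 12-library fit, nor was any gene (0% of 20929). At an unadjusted p under 0.05 there were 3 members (ALDH3A1, ALDH3B1 and ALDH3B2) and 3.61% of all genes, and DESeq2 called 3 members and 0.803% of genes. This comparison does not use the monolayers. In a fit of 10 libraries without the HCC1806 monolayers, 5 members were called, against 6.80% of all genes. There ALDH3A1 fell by 0.99 ± 0.09 on the log2 scale (adjusted p = 6.17e-05) and ALDH3B1 fell by 1.07 ± 0.11 (adjusted p = 4.88e-05). ALDH3B2 rose by 0.92 ± 0.10 (adjusted p = 6.35e-05), ALDH1L1 by 0.77 ± 0.15 (adjusted p = 0.0094) and ALDH2 by 0.63 ± 0.08 (adjusted p = 0.000304). ALDH1A3 missed the threshold at -0.40 ± 0.12 (adjusted p = 0.0541), and ALDH1A1 gave -0.61 ± 0.31 (adjusted p = 0.365).

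In BT474 no member was called by edgeR at day 10 or day 20 in the 12-library fit, where 0.129% and 0.234% of all genes were, and none between the days, where 0% of genes were. Unadjusted p was under 0.05 for 2 members at day 10 (ALDH1A3 and ALDH3B1), 2 at day 20 (ALDH1A2 and ALDH1A3) and 0 between the days, and for 5.81%, 6.89% and 1.53% of all genes. DESeq2 called 0 members in each. Replicates were close in each BT474 group (SD of the log2 difference over genes 0.499 to 0.63), as in HCC1806 spheroids (0.594 and 0.606). In the 10-library fit, 3 members were called at each day, against 12.2% of all genes at day 10 and 14.6% at day 20, and the fit of BT474 alone also called 3 and 3, against 14.6% and 17.6%. Between the days the 10-library fit called 0 members and 0.281% of genes.

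ALDH1A3 had 3.64 and 2.71 CPM in the BT474 monolayer, 1.36 and 1.21 CPM at day 10, and 1.34 and 1.13 CPM at day 20. All 4 spheroid libraries were below both monolayers, at a level far below that of HCC1806. In the 10-library fit it fell by 1.33 ± 0.19 on the log2 scale at day 10 (adjusted p = 0.000388) and by 1.37 ± 0.20 at day 20 (adjusted p = 0.000496). In the 12-library fit the same differences were -1.31 ± 0.52 (adjusted p = 0.753) and -1.37 ± 0.53 (adjusted p = 0.621).

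ALDH3B1 had 11.95 and 12.4 CPM in the BT474 monolayer, 18.7 and 21.0 CPM at day 10, and 16.3 and 17.0 CPM at day 20. Both spheroid groups lay above the monolayer. The 10-library fit gave 0.69 ± 0.11 at day 10 (adjusted p = 0.0012) and 0.45 ± 0.11 at day 20 (adjusted p = 0.0177), and the 12-library fit gave 0.70 ± 0.23 and 0.45 ± 0.23, neither called.

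ALDH3B2, the most abundant member of BT474, had 1384 and 1510 CPM in the monolayer, 1694 and 1849 CPM at day 10, and 1665 and 1646 CPM at day 20. The groups did not overlap with the monolayer, and the 10-library difference was 0.28 ± 0.08 at day 10 (adjusted p = 0.0345) and 0.19 ± 0.08 at day 20 (adjusted p = 0.136). ALDH1A2 was the other call at day 20 in that fit (1.77 ± 0.54, adjusted p = 0.0431), at 1.60 and 1.33 CPM against 0.689 and 0.165 CPM in the monolayer. ALDH1A1 in BT474 had 10.7 and 23.4 CPM in the monolayer and 8.003 to 12.02 CPM in spheroids, a monolayer pair that differed by 2.18 times. ALDH2 (263 to 298 CPM), ALDH3A2 (102 to 136 CPM) and ALDH1B1 (35.3 to 40.9 CPM) were close to level over the 6 BT474 libraries. ALDH3A1 was at 0 counts in all 6, and ALDH1L1 had a single count in 1 of them.

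Whether the spheroid effect differed between the lines was tested directly. At day 10 the difference was called for 1 member (1.35% of all genes were called) and at day 20 for 2 (2.77%). For ALDH3B2 the HCC1806 effect exceeded that in BT474 by 3.35 ± 0.29 on the log2 scale at day 10 (adjusted p = 0.00372) and by 4.36 ± 0.29 at day 20 (adjusted p = 0.000688). For ALDH3B1 at day 20 the difference was -1.67 ± 0.33 (adjusted p = 0.038), with a lower level in HCC1806 spheroids and a higher one in BT474 spheroids than in the monolayers. Both ALDH3B2 calls were lost with voom quality weights, and that at day 10 also without BT474 day 10 replicate 1 (adjusted p = 0.0577). The ALDH3B1 call was lost when any of the BT474 monolayers or day 20 libraries of either line was left out (highest adjusted p = 0.181), and in the fit of all 16 libraries. ALDH3A2 missed the threshold at day 10 (1.11 ± 0.23, adjusted p = 0.0599). For ALDH3A1 and ALDH1L1 no difference could be estimated, since BT474 was at or near 0 counts.

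Between HCC1806 and BT474 spheroids, 8 of 10 members were called at day 10 and 7 at day 20, when 43.2% and 43.6% of all genes were called. At day 10 ALDH1A1, ALDH1A3, ALDH1L1, ALDH3A1, ALDH3A2 and ALDH3B1 were higher in HCC1806, and ALDH2 and ALDH3B2 were higher in BT474. ALDH3B1, at 0.91 ± 0.23 (adjusted p = 0.0123), lost that call when any of the 4 libraries was left out. It was not called at day 20, when the lines had 17.6 and 16.3 to 17.0 CPM. ALDH1A1, higher in HCC1806, had log2 fold changes of 3.00 ± 0.61 (adjusted p = 0.00451) and 2.70 ± 0.60 (adjusted p = 0.00704) at day 10 and day 20, ALDH1A3 of 6.89 ± 0.63 (adjusted p = 7.55e-05) and 6.54 ± 0.62 (adjusted p = 9.41e-05). The ALDH1A1 call at day 20 was lost without BT474 day 20 replicate 2 (adjusted p = 0.0599). On the same scale ALDH3A2 differed by 2.08 ± 0.17 and 1.64 ± 0.17, ALDH2 by -3.27 ± 0.44 and -2.54 ± 0.43, and ALDH3B2 by -8.15 ± 0.25 and -7.14 ± 0.24. ALDH1A2 and ALDH1B1 were called at neither day, but ALDH1B1 at day 20 was called lower in HCC1806 without the HCC1806 monolayers (-0.46, adjusted p = 0.00149).

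For the genes at 0 counts in BT474 a fold is a lower bound, computed against 3 counts over the group. Like all counting limits here it covers counting error only. These limits take each count as separate, although even low counts outnumbered odd ones (1.51 to 2.04 even for each odd). If both reads of a pair were counted, the limits are too tight. ALDH3A1 was at least 10400-fold higher in HCC1806 at day 10 and at least 3520-fold higher at day 20. With a BT474 library left out, and so less depth against the same 3 counts, these bounds were 3830 and 1740 at their lowest. ALDH1L1 was at least 866-fold higher at day 10 (317 without BT474 replicate 2), and at day 20, with 3133 counts against 1, the ratio was 2960 (exact 95% interval 531 to 117000).

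The 6 comparisons between monolayers, fitted over all 16 libraries and 21700 genes, ask how the lines differ without spheroid growth. HCC1806 differed from CAL148 in 7 of 10 members (40.0% of all genes called), from BT474 in 7 (40.6%) and from ZR-75-30 in 5 (39.0%). CAL148 differed from BT474 in 5 (24.0%) and from ZR-75-30 in 5 (30.1%), all 10 of these calls being lower in CAL148. Of all genes, 10.2% were called higher and 13.8% lower in CAL148 than in BT474, and 14.9% and 15.2% than in ZR-75-30. Both comparisons use the same CAL148 libraries. ALDH1A1, ALDH1A3, ALDH3B1 and ALDH3B2 were called in both, so these calls are not 10 separate results. BT474 differed from ZR-75-30 in 4 (26.1%). HCC1806 and ZR-75-30 shared RPMI, and CAL148 and BT474 shared DMEM.

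ALDH1A1 was at 0 counts in both CAL148 libraries, and had 1.70 and 19.3 CPM in ZR-75-30. Pooled over both libraries of a line, its level was at least 726-fold higher in HCC1806, at least 460-fold higher in BT474 and at least 218-fold higher in ZR-75-30 than in CAL148. Those pools join unlike libraries, and in an alternative chosen after seeing the data, with 1 library left out, the lowest bounds were 329 (without HCC1806 replicate 1), 212 (without CAL148 replicate 2) and 45.7 (without ZR-75-30 replicate 2). The call of CAL148 against ZR-75-30 was lost with voom quality weights and with limma on log2(FPKM + 1) (highest adjusted p = 0.0788). Between the 3 lines that had it, the libraries overlapped and no difference was called (adjusted p = 0.197 to 0.608). Without ZR-75-30 replicate 2 the remaining ZR-75-30 library was called lower than HCC1806 (4.14, adjusted p = 0.00607) and than BT474 (3.33, adjusted p = 0.0232).

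ALDH1A3 had 1 and 2 counts in CAL148 and 17.0 and 4.58 CPM in ZR-75-30. By monolayer level the lines stood in the order HCC1806, ZR-75-30, BT474, CAL148. HCC1806 exceeded ZR-75-30 by 3.08 ± 0.62 on the log2 scale (adjusted p = 0.00252) and BT474 by 4.85 ± 0.68 (adjusted p = 0.000251), and it exceeded CAL148 by a ratio of 2720 (exact 95% interval 931 to 13200). Without HCC1806 replicate 2 that ratio was 1040. For BT474 against ZR-75-30, neighbours in that order, the value was -1.77 ± 0.60, which missed the threshold (adjusted p = 0.0501) but was called in 6 of 14 alternatives, among them without ZR-75-30 replicate 2 (-2.41, adjusted p = 0.0149). BT474 exceeded CAL148 by a ratio of 85.3 (28.9 to 416), a pair whose call was lost with limma on log2(FPKM + 1) (adjusted p = 0.433).

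ALDH3A1 had 0.0538 and 0.230 CPM in CAL148, and in ZR-75-30 0.139 and 1.17 CPM. HCC1806 monolayers exceeded CAL148 by 9.02 ± 0.91 on the log2 scale (adjusted p = 0.000127), ZR-75-30 by 7.02 ± 0.82 (adjusted p = 0.000263) and BT474 by at least 2190 times. BT474 was lower than ZR-75-30, which had 29 counts in all (adjusted p = 0.0123). That call was lost without either BT474 monolayer library and in the fit of the 8 monolayer libraries. It was also lost with limma on log2(FPKM + 0.1) and on log2(FPKM + 1), and the highest adjusted p over the alternatives was 0.336. ALDH1L1 had 5 counts in CAL148, 1 in ZR-75-30 and 0 in BT474 against 377 in the HCC1806 monolayers, of which replicate 1 held 314 and replicate 2 held 63. The HCC1806 level was at least 171 times that of BT474 with both libraries pooled, and at least 48.2 times without HCC1806 replicate 1.

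ALDH3B2 separated all 4 lines, and each of the 6 pairs was called. Its monolayer level was 81.2 and 85.0 CPM in CAL148 and 310 and 324 CPM in ZR-75-30, between the 0.434 and 0.544 CPM of HCC1806 and the 1384 and 1510 CPM of BT474. Between neighbours in that order the log2 fold change was -7.39 ± 0.27 for HCC1806 against CAL148 (adjusted p = 6.94e-08), -1.93 ± 0.20 for CAL148 against ZR-75-30 (adjusted p = 4.21e-05) and 2.19 ± 0.20 for BT474 against ZR-75-30 (adjusted p = 2.79e-05). All 6 pairs were called in every alternative. ALDH3B1, also on chromosome 11, was ordered differently. It had 1.37 and 1.89 CPM in CAL148, then came BT474, then HCC1806 (50.2 and 31.3 CPM) and ZR-75-30 (44.1 and 68.8 CPM). The last pair overlapped and was not called (adjusted p = 0.219). Without HCC1806 replicate 1 that difference was -0.82 and was called (adjusted p = 0.0339).

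ALDH3A2 had 77.3 and 89.4 CPM in CAL148 and 147 and 140 CPM in ZR-75-30. HCC1806 was higher than each of the other lines, by 1.43 ± 0.19 over CAL148 (adjusted p = 0.000165), 0.96 ± 0.19 over BT474 (adjusted p = 0.00196) and 0.64 ± 0.19 over ZR-75-30 (adjusted p = 0.018). The last call was lost without ZR-75-30 replicate 2 (adjusted p = 0.0703). CAL148 was below ZR-75-30 (-0.79 ± 0.19, adjusted p = 0.00837), a call lost without CAL148 replicate 1 (adjusted p = 0.0674). The calls against BT474 and ZR-75-30 and that between CAL148 and ZR-75-30 were also lost with voom quality weights and in a fit of the 8 monolayer libraries. Neither line was called different from BT474, which lay between them.

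ALDH2 had 86.1 and 96.3 CPM in CAL148 and 59.0 and 143 CPM in ZR-75-30, and was highest in BT474. Against BT474 the log2 fold change was -2.30 ± 0.47 in HCC1806 (adjusted p = 0.00271) and -1.62 ± 0.46 in CAL148 (adjusted p = 0.0247), and BT474 exceeded ZR-75-30 by 1.48 ± 0.46 (adjusted p = 0.0342). The call against CAL148 was lost without any 1 of the 4 libraries (highest adjusted p = 0.113), and that against ZR-75-30 without either BT474 library or without ZR-75-30 replicate 1 (highest adjusted p = 0.162). ALDH1B1 had 28.97 and 36.6 CPM in CAL148 and 37.7 and 28.5 CPM in ZR-75-30, and neither it nor ALDH1A2 was called in any of the 6 pairs. Against each of the other 3 lines, ALDH1B1 was called higher in HCC1806 without its replicate 1 and lower without its replicate 2. ALDH2, not called between HCC1806 and CAL148 or ZR-75-30, was called lower in HCC1806 without HCC1806 replicate 1 (-1.66, adjusted p = 0.0052, and -1.79, adjusted p = 0.00316), and against ZR-75-30 also without ZR-75-30 replicate 1 (-1.32, adjusted p = 0.047). Outside the HCC1806 monolayers, ALDH1B1 lay between 26.5 and 40.9 CPM in all 14 libraries.

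The genes whose pattern over the 8 groups was most like that of each member were found by the root mean square difference of centred log2 group means, among 11193 protein-coding genes with a mean of at least 5 CPM. For ALDH3A1 they were TTC22 (0.778) and CCDC80 (0.796), for ALDH1L1 ARSI (0.394) and BMP2 (0.45), and for ALDH1A3 TRIM29 (0.611) and IL18 (0.639). For ALDH1A1 they were ATP2B4 (0.677) and SKAP2 (0.75), for ALDH3A2 GGCX (0.163) and RNF149 (0.166), and for ALDH2 FOXRED1 (0.161) and MRPL16 (0.236). For ALDH3B1 they were OSR2 (0.425) and RRAS (0.496), for ALDH1B1 TEX261 (0.0691) and AKIRIN2 (0.0783), and for the low ALDH1A2 GSTA4 (0.482) and SLC16A13 (0.519). For ALDH3B2 they were CRAT (1.10) and LRP2 (1.16), the largest of these differences. A value of 0 would be the same pattern, and groups of 1 line share that line. Between members the smallest difference was 0.934, for ALDH1B1 and ALDH3A2. That is more than the 0.844 by which ALDH3A2 differed from a flat pattern, and ALDH1B1 itself was near flat (0.171). Among the HCC1806-high genes, ALDH1L1 and ALDH3A1 differed by 1.61, where a flat pattern differed from them by 3.95 and 5.2.

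The retinoid pathway supplies the substrate of the ALDH1A enzymes and reads their product. In HCC1806, 5 of the 28 tested genes of the retinoid list rose at each day and 0 fell (list median 0.38 at day 10 and 0.32 at day 20, against 0 over all genes). Of all genes tested, 5.14% rose and 3.58% fell at day 10, and 6.24% rose and 4.85% fell at day 20. RXRA, the partner of the retinoic acid receptors, had 328 ± 62.7 CPM (SD, n = 2) in the monolayer, 813 ± 22.5 at day 10 and 627 ± 26.9 at day 20, with log2 fold changes of 1.30 ± 0.20 (adjusted p = 0.00775) and 0.93 ± 0.20 (adjusted p = 0.0214). RDH10, which makes retinaldehyde from retinol, rose at day 10 from 21.9 ± 12.95 to 87.1 ± 0.041 CPM (1.98 ± 0.35, adjusted p = 0.0123). RARB, a retinoic acid receptor and a target of that pathway, rose at day 10 from 6.18 ± 3.22 to 19.4 ± 0.030 CPM (1.64 ± 0.37, adjusted p = 0.0299). The remaining calls were at low level and fall outside the naming rule, and were named after their values were seen: STRA6 and BCO1 at both days, and RDH12 and CYP26A1 at day 20, all under 6 CPM. Each of these calls held with either monolayer library left out.

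Alcohol dehydrogenases provide the step before. Of 4 tested, 1 rose at each day, against 5.14% and 6.24% of all genes. This was ADH7, which oxidises retinol and ethanol and rose from 0.303 ± 0.352 CPM to 13.9 ± 0.466 at day 10 (5.59 ± 0.91, adjusted p = 0.0234) and 22.1 ± 0.507 at day 20 (6.26 ± 0.93, adjusted p = 0.0159). It was at 0 CPM in all the libraries of the other 3 lines. ADH1C, ADH5 and ADH6 were not called.

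Of the 8 genes of the aryl hydrocarbon receptor axis, 4 rose in HCC1806 at day 10, when 5.14% of all genes rose. AHR, the receptor, rose from 76.3 ± 23.8 to 158 ± 0.591 CPM (1.04 ± 0.26, adjusted p = 0.0429) and ARNT, its partner, from 39.4 ± 12.8 to 80.2 ± 1.07 CPM (1.02 ± 0.22, adjusted p = 0.0251). Among targets, TIPARP rose from 39.6 ± 9.32 to 104 ± 0.979 CPM (1.39 ± 0.19, adjusted p = 0.00566) and CYP1B1 from 61.2 ± 58.8 to 545 ± 16.4 CPM (3.15 ± 0.77, adjusted p = 0.0407). With monolayer replicate 1 left out CYP1B1 was no longer called (adjusted p = 0.0523). At day 20, TIPARP was higher (0.99 ± 0.19, adjusted p = 0.0145) and NQO1 fell by 0.74 ± 0.17 on the log2 scale (adjusted p = 0.0269). The list median was 1.03 at day 10 and 1.20 at day 20, or 0.93 at day 20 with CYP1A2, at 0 counts in the monolayer, set to its bound.

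In BT474, 0 genes of any of these 4 lists were called at either day, when 0.129% and 0.234% of all genes were. The retinoid list median there was 0.305 at day 10 and 0.292 at day 20, near the 0.38 and 0.32 of HCC1806. Over that list the median line difference was -0.0422 at day 10 and 0.077 at day 20. Of the 28 retinoid genes tested, the line difference was called for 1 at day 10 (STRA6) and 3 at day 20 (STRA6, BCO1 and CYP26A1), all low. Each of these effects was higher in HCC1806, and so were those of 0.956% of all genes at day 10 and 1.79% at day 20. Between the lines at day 10, 12 retinoid genes were higher and 5 lower in HCC1806 than in BT474, when 23.6% of all genes tested were higher and 19.5% lower. The 5 largest of these by the naming rule were DHRS9 (5.97 ± 1.25), RARB (4.56 ± 0.42), DHRS3 (4.43 ± 0.64) and FABP5 (4.42 ± 0.63), all higher, and CRABP2 (-3.81 ± 0.81), lower. Among the other family members at day 10, 3 were higher in HCC1806 and 4 lower, led by ALDH1L2 (7.63 ± 0.83), the mitochondrial relative of ALDH1L1, and ALDH4A1 (-3.44 ± 0.24).

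**Figure D5:**
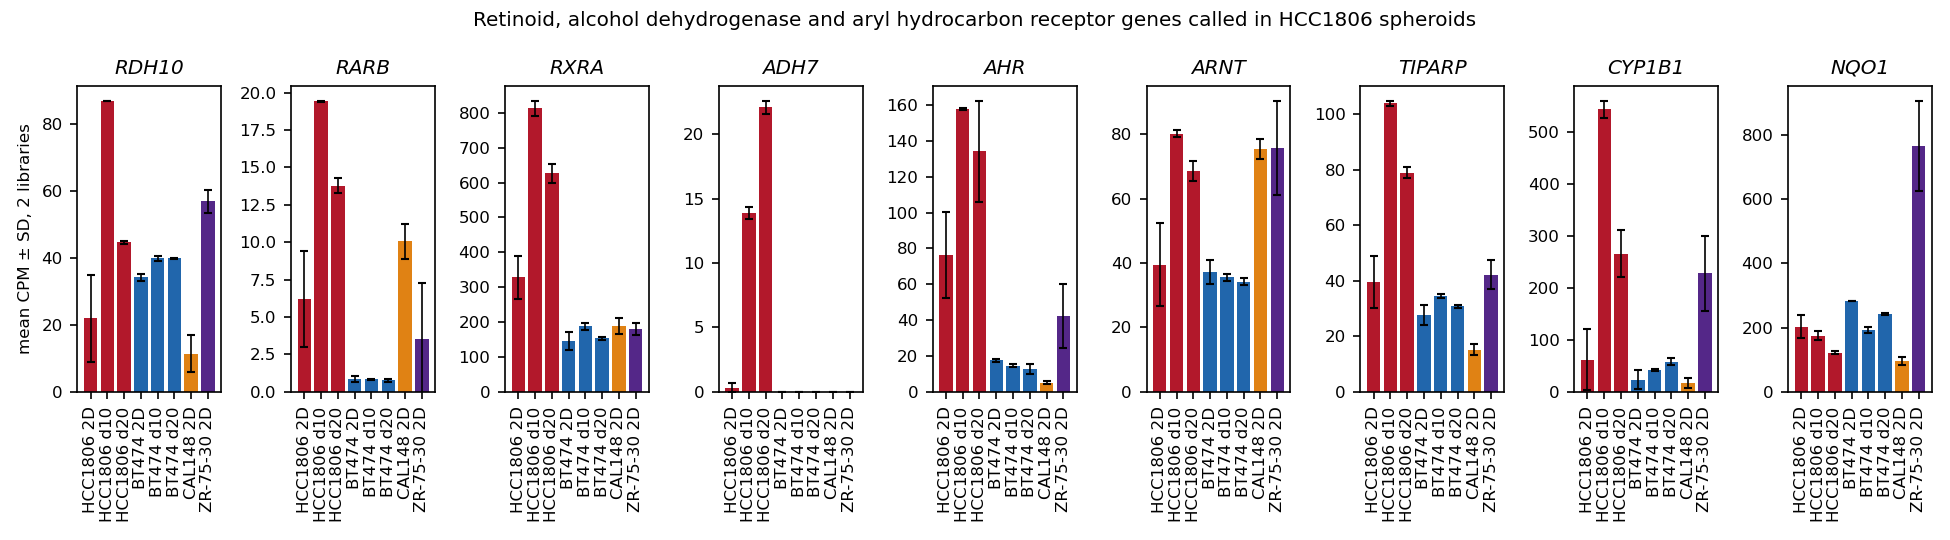
Mean CPM of 2 libraries, with the SD as error bar, for 9 genes of the retinoid, alcohol dehydrogenase and aryl hydrocarbon receptor lists called in HCC1806 spheroids, by group; each panel has its own axis from 0. ADH7 has bars in HCC1806 alone, at 13.9 and 22.1 CPM in spheroids, and RXRA reaches 813 CPM at day 10.

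Markers of other cell types were looked at beside these results. The 5 basal markers, each at 1 CPM or more in every HCC1806 group, summed to 4596 to 5372 CPM in HCC1806 monolayers, 3650 to 4025 at day 10 and 6984 to 7618 at day 20, but they went different ways. Mean KRT5 was 2254, 2428 and 4673 CPM in monolayer, day 10 and day 20, TP63 251, 487 and 572 CPM, and EGFR 283, 330 and 610 CPM. KRT14 was at 1383, 456 and 1206 CPM and KRT17 at 813, 137 and 241 CPM, both lowest at day 10. The 5 epithelial markers, all detected likewise, summed to 3643 to 6110 CPM in the monolayers, 3490 to 3849 at day 10 and 2543 to 2769 at day 20.

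The 5 luminal and receptor markers used here (ESR1, PGR, ERBB2, GATA3 and FOXA1) summed in HCC1806 to 223 to 334 CPM in the monolayers, 554 to 574 at day 10 and 420.0 to 425 at day 20, with 4 of them at a mean of 1 CPM or more in each group. FOXA1, a luminal transcription factor, had means of 21.8, 97.1 and 39.1 CPM, GATA3, another, 131, 239 and 197 CPM, and the receptor ERBB2 117, 215 and 174 CPM. PGR was at 0 counts in the HCC1806 monolayers and at day 10. In BT474 the same list summed to 7955 to 8549, 7400 to 7502 and 8003 to 8164 CPM. Most of that was ERBB2, with means of 7016, 5919 and 6443 CPM, and the other genes went different ways. Mean PGR rose from 516 to 1026 and 1130 CPM, and mean GATA3 fell from 182 to 49.8 and 50.9 CPM. FOXA1 had means of 453, 377 and 379 CPM, and ESR1 85.6, 79.5 and 81.0 CPM.

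Leukocyte markers in BT474 summed to 0.354 to 0.689 CPM in the monolayers, 15.9 to 18.95 at day 10 and 24.3 to 25.1 at day 20, with 0, 1 and 1 of the 7 at a mean of 1 CPM or more. That 1 was LYZ, the lysozyme gene, with means of 0.320, 17.1 and 24.6 CPM, while PTPRC, the pan-leukocyte marker, was at 0 counts in all 6 BT474 libraries. In HCC1806 at most 2 of the 7 reached 1 CPM in any group. Fibroblast markers summed to at most 102 CPM and endothelial markers to at most 9.08 CPM in any library. In HCC1806 the fibroblast sum was 23.2 to 50.55 CPM in the monolayers, 68.1 to 68.2 at day 10 and 84.1 to 99.2 at day 20. There 3, 2 and 3 of the 7 genes had a mean of 1 CPM or more. In BT474, with 1 such gene in each group, it was 73.8 to 74.6, 92.0 to 102 and 78.8 to 89.4 CPM. The part of these basal, luminal, epithelial, fibroblast and leukocyte marker differences in the spheroid results of either line was not tested.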

How the data were processed

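The reads of 16 libraries from 4 breast cancer lines had been aligned with HISAT2 2.2.1 to GRCh38 by the authors, and genes counted by featureCounts 2.0.6, per the submitters' processing notes. The deposited counts are whole numbers, 29696358 to 72489002 per library. The strand setting is not given in the sources used here. Even low counts outnumbered odd ones (1.51 to 2.04 even for each odd), so counts were also halved as an alternative. The deposited FPKM values, made by the authors, served for comparing levels between genes and for alternatives. Sample titles gave the groups, since the treatment label of all 16 samples names a monolayer.

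The count test was the robust quasi-likelihood test of edgeR 4.0.16 in R 4.3.3, with TMM factors, a filter at minimum count 10 and total count 15, and Benjamini-Hochberg adjustment over all genes. Alternatives used limma 3.58.1 and DESeq2 1.42.0, another scaling, other filters, a replicate block, other sets of libraries and each library left out. The test was tried on simulated counts. Figures used matplotlib 3.10.9.

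The members, the gene lists and the tests were chosen with earlier results of these data known. All members are named. From each list up to 5 called genes with a mean CPM of at least 5 are named per comparison, by size of change. The 2 most similar genes are named per member. A marker of the luminal list is not reported here and was left out of its sums.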

Additional observations from a re-analysis of the deposited data

Results flagged for a closer look

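For 2 aldehyde dehydrogenases the effect of spheroid growth was called different between the lines. The difference itself was tested (edgeR quasi-likelihood test, Benjamini-Hochberg adjustment). In that test 1.35% of all genes were called at day 10 and 2.77% at day 20. For ALDH3B2 the log2 effect in HCC1806 minus that in BT474 was 3.35 at day 10 (adjusted p = 0.00372) and 4.36 at day 20 (adjusted p = 0.000688). All 4 HCC1806 spheroid libraries were above both monolayers of that line, from a start of 11 and 20 counts, and all 4 BT474 spheroid libraries were also above theirs. For ALDH3B1 at day 20 the difference was -1.67 (adjusted p = 0.038), with both HCC1806 spheroid libraries below and both BT474 spheroid libraries above the monolayers of their line. Of these 3 calls 0 held in every alternative: both for ALDH3B2 were lost with voom quality weights, and that for ALDH3B1 in 9 of 18 alternatives. The day 10 and day 20 values share the monolayer libraries.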

How the results depend on the processing

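Called differences kept their direction in every alternative. Of 33 such pairs of member and comparison between monolayers 24 stayed called throughout, of 15 between spheroids of the lines 13, of 7 against monolayer 0, and of 3 line differences 0. Some members that had not been called turned sign. For HCC1806 against its monolayer, without monolayer replicate 1 and then without replicate 2, ALDH1A2 at day 10 gave 1.02 and -0.40 (and -0.24 without day 10 replicate 1), ALDH1A3 -0.0092 and 1.99 at day 10 and -0.42 and 1.57 at day 20, and ALDH1B1 -1.39 and 0.75 at day 10 and -1.65 and 0.48 at day 20. ALDH2 at day 20 gave 0.60 and -0.90, and ALDH3B1 at day 10 gave 0.17 and -0.42. With voom quality weights ALDH2 at day 20 gave 0.30 and ALDH3B1 at day 10 gave 0.086. Between monolayers, followed likewise after seeing the data, values with a library left out ran for ALDH1A1 from -0.46 to 1.48 (HCC1806 against BT474) and from -0.17 to 3.33 (BT474 against ZR-75-30), for ALDH1A2 from -1.35 to 0.86 (HCC1806 against BT474), from -1.16 to 1.14 (HCC1806 against CAL148) and from -1.65 to 1.18 (CAL148 against BT474), and for ALDH2 from -0.64 to 0.63 (CAL148 against ZR-75-30, 0.14 with voom quality weights). ALDH1B1 in HCC1806 without replicate 2 and without replicate 1 gave -0.95 and 1.13 against BT474, -0.73 and 1.35 against CAL148, and -0.74 and 1.34 against ZR-75-30, called lower and then higher each time. For CAL148 against ZR-75-30 it ran from -0.20 to 0.21, and was 0.053 with no count filter, 0.0098 with the stricter filter and 0.020 with the 8 monolayer libraries. The cause was not tested.

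Members called are given with the share of all genes called under the same setting in brackets. In HCC1806 against monolayer (3 at day 10, 4 at day 20) they were 6 at day 10 with no count filter (9.30%), 0 and 0 with the line alone (0% and 0.0106%), 1 and 0 with voom quality weights (0.282% and 0.354%), and with a library left out 1 to 8 at day 10 (0.674% to 52.8%) and 1 to 10 at day 20 (1.43% to 53.0%). Between the days 0 members (0%) became 3 with DESeq2 (0.803%), 1 with limma on log2(FPKM + 1) (0.764%), 7 with voom quality weights (8.73%) and 5 without the HCC1806 monolayers (6.80%). In BT474, 0 at day 10 and day 20 became 1 and 1 with no count filter (1.15% and 1.16%), 3 and 3 with the line alone (14.6% and 17.6%), 3 and 1 with voom quality weights (8.66% and 9.81%), and 3 and 3 without the HCC1806 monolayers (12.2% and 14.6%). Between the BT474 days voom quality weights called 1 (2.37%). The line difference at day 10 (1 member, 1.35%) was called for 2 with DESeq2 (10.2%) and the stricter count filter (3.17%), 3 with an FPKM pseudocount of 0.1 (3.67%) or 1 (5.40%) and with no count filter (3.79%), 0 with voom quality weights (0.0239%), and 0 to 6 with a library left out (0.0356% to 44.8%). At day 20 (2 members, 2.77%) it was called for 1 with all 16 libraries (0.392%), 4 with limma on log2(FPKM + 1) (7.81%) and with no count filter (4.82%), 0 with voom quality weights (0.0526%), and 1 to 7 with a library left out (0.0489% to 45.4%). Between monolayers, BT474 against ZR-75-30 (4, 26.1%) gave 2 with the 8 monolayer libraries (8.04%) and 2 to 6 with a library left out (12.9% to 22.2%), CAL148 against ZR-75-30 (5, 30.1%) gave 3 with voom quality weights (17.8%), and HCC1806 against ZR-75-30 (5, 39.0%) gave 3 with voom quality weights (7.92%) and 5 to 8 with a library left out (28.4% to 44.3%).

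Replicate numbers did not pair the samples: same-numbered libraries correlated in their deviations by -0.102 to 0.0781 over 15 pairs of groups in the 12-library fit and by -0.441 to 0.0781 over 28 pairs in the 16-library fit, with 0 pairs over 0.1 in either. With the replicate block, 3 members were called at each day in HCC1806 against monolayer (ALDH3A1 at day 20 was lost, adjusted p = 0.0668) against 6.78% and 8.58% of all genes, and 1 for the line difference at day 20 (ALDH3B1 was lost), against 1.18% of genes. RLE scaling moved the median of all genes for HCC1806 against BT474 monolayers from 0.14 to 0.25. Over all genes, calls in HCC1806 against monolayer (1826 at day 10 and 2322 at day 20) were 4323 and 4694 with DESeq2, 3406 and 3930 with no count filter, 834 and 1076 with all 16 libraries and 59 and 74 with voom quality weights, and in BT474 (27 and 49) they were 484 and 585 with DESeq2 and 2524 and 3017 without the HCC1806 monolayers. Depth limits ALDH1A2, with 0 to 60 counts per library.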
